A study of Caenorhabditis elegans with 2 samples.

Results

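The 7 genes described here encode some of the folding proteins of 3 compartments of the worm cell, and were examined for regions of T23F11.4 binding near their starts. They were hsp-1, hsp-110 and dnj-19 of the cytosol, hsp-3 and hsp-4 of the endoplasmic reticulum, and hsp-6 and hsp-60 of the mitochondrion, 7 of 19973 nuclear protein-coding genes. They were selected on results of these same data, with the peak lists already known, so their signal and rank are given as a description and no test was made on them. For each gene, every region whose summit lay within 1000 bp of any annotated transcript start was taken, in each of 4 deposited lists. Expression was not measured, so the name constitutive could not be checked here, and hsp-4, hsp-6 and hsp-60 are also widely used as genes that stress induces.

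The data came from chromatin immunoprecipitation and sequencing (ChIP-seq) of whole late embryos of Caenorhabditis elegans, males and females pooled, synchronised by egg bleaching and with a labelled age of 4 hours. The strain of both samples, OP709, carries the mutation unc-119(tm4063) and the transgene wgIs709, in which T23F11.4 is fused to TY1, EGFP and 3xFLAG tags and is accompanied by a rescuing unc-119(+) copy. RefSeq annotates the T23F11.4 product as a protein with a C2H2-type (zinc finger) domain. The description of the samples states that an antibody to green fluorescent protein was used, whereas the antibody field of the labels names T23F11.4. There was 1 group of 2 samples, labelled as biological replicates 1 and 2, and no group with another genotype or condition. The labels name neither the promoter that drives the transgene nor the cells it is made in, and in whole embryos many cells with little binding and few cells with much cannot be told apart.

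Heat shock proteins of the HSP70 class bind unfolded stretches of other proteins and release them in a cycle driven by ATP. J-domain proteins bring them clients and start ATP hydrolysis, HSP110 proteins exchange the spent nucleotide, and chaperonins such as HSP60 enclose a protein while it folds. Their genes are classic targets of stress pathways: heat shock factor binds short alternating GAA and TTC units, and the unfolded protein response of the endoplasmic reticulum acts through elements with a CCACG or a TGACGTG core.

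The sequences at the sites are shown first because the 7 genes differed in these elements. Each is given in the direction of its own gene, from ce11 (the WBcel235 assembly), and capitals mark every match, on either strand, to the paired heat shock units TTCNNGAA and GAANNTTC, to the short CCACG core and the longer TGACGTG core of the endoplasmic reticulum response, and to the CCAAT box. For 6 genes the sequence surrounds the summit of the strongest region in the pooled list, and for hsp-4, which had no such region, it is the stretch just upstream of the outermost start.
The first pair has both endoplasmic reticulum cores, at chrX:6092125-6092260 (minus strand) and chrII:7352646-7352895 (minus strand).
hsp-3: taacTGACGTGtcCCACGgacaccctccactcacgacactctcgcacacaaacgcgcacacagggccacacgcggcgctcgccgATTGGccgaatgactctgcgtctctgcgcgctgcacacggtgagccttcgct
hsp-4: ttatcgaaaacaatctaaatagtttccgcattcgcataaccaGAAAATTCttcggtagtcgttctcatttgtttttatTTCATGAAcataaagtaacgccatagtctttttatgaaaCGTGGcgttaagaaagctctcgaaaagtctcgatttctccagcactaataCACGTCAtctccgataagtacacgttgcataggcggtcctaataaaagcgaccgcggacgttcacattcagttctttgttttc
The next 3 hold GAA and TTC units that run into one another, at chrIII:1618990-1619190 (plus strand), chrIII:8447026-8447226 (minus strand) and chrV:4826954-4827154 (minus strand).
hsp-60: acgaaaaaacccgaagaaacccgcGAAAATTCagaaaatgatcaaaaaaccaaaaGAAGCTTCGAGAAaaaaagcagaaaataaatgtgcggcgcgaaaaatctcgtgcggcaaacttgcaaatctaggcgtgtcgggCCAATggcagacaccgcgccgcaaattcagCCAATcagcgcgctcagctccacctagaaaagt
hsp-110: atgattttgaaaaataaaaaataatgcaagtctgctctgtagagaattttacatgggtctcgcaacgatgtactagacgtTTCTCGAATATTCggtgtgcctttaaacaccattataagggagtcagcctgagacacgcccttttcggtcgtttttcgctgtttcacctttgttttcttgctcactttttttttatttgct
hsp-6: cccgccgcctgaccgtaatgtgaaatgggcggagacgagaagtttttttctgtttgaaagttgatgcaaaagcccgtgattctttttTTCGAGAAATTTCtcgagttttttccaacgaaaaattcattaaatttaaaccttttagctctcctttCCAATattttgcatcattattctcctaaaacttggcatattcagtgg
The last pair has a single GAANNTTC match close to the summit, at chrIV:17278519-17278719 (plus strand) and chrV:5505099-5505252 (minus strand).
hsp-1: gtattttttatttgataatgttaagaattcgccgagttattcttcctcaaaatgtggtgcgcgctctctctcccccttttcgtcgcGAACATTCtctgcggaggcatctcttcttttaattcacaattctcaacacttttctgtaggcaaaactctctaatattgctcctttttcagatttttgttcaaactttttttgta
dnj-19: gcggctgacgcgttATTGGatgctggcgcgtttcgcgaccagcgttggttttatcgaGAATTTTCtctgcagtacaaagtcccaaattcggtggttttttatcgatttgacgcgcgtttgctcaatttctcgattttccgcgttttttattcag

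The authors' lists had different scales, so values are compared only within a list. The signal value of a region is the authors' own, and rank 1 is the highest signal among nuclear regions. The pooled list, called on both replicates together, held 29999 nuclear regions with signal from 34.94 to 887.51 (median 47.13). The replicate 1 list held 29994 (14.87 to 347.06, median 20.48) and the replicate 2 list 25794 (25.65 to 576.94, median 33.75). These lists contain background as well as peaks. The optimal set, the 635 strongest nuclear regions of the pooled list that passed the authors' reproducibility threshold, began at a signal of 115.72. No read depth is given for any list, so no error from depth could be set on a region.

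Of the 7 genes, 4 had an optimal summit in range, namely hsp-3, hsp-1, dnj-19 and hsp-60. The same holds for 467 of 19973 protein-coding genes, or 2.34%. A region of the pooled list was present for 6 of 7, where 51.7% of coding genes have one. The strongest region ranked within the top 635 of both replicate lists for the same 4 genes, against 1.42% of coding genes. Since the genes were chosen from these lists, the counts are read as a description only. The median of their strongest pooled signal was 187.96 over the 6 with a region and 174.06 over all 7 with hsp-4 counted lowest. For all coding genes the corresponding medians were 51.43 (10333 genes with a region, quartiles 42.59 and 65.71) and 35.91 (19973 genes). All 4 optimal summits were upstream of the start, as were those of 386 of 467 coding genes (82.7%).

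**Figure D1:**
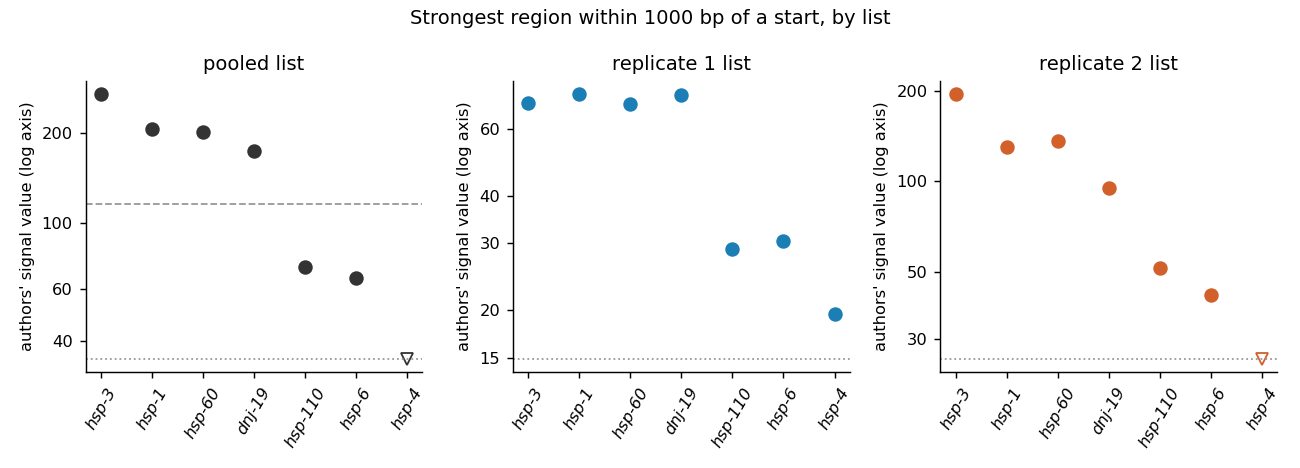
Signal value of the strongest region within 1000 bp of a start for each chaperone gene, in the pooled, replicate 1 and replicate 2 lists (log axes with different scales). The dotted line is the lowest signal in the list, the dashed line the lowest optimal signal (115.72), and an open triangle marks no region in range; 4 genes lie above the dashed line, hsp-110 and hsp-6 below it, and hsp-4 has a region in replicate 1 alone.

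**Figure D2:**
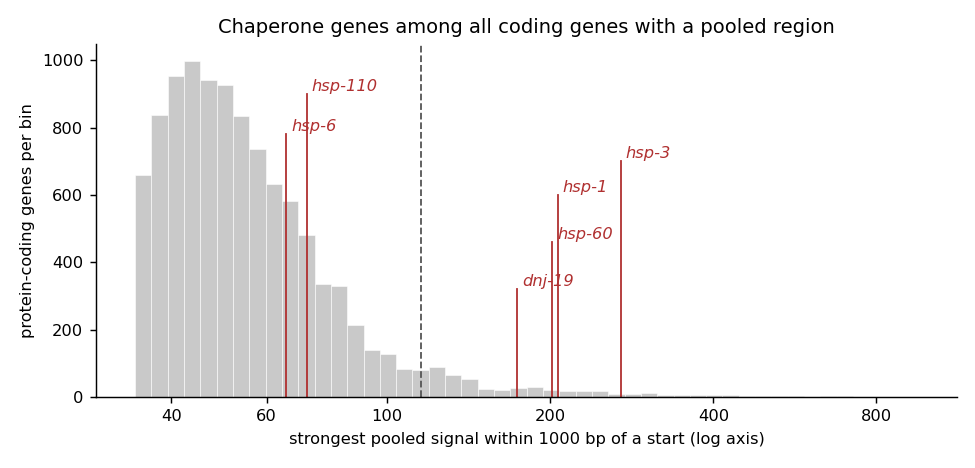
Histogram of the strongest pooled signal within 1000 bp of a start over the 10333 protein-coding genes that have one (log x axis, bins of equal log width), with a red line for each of the 6 chaperone genes that have a region and a dashed line at the lowest optimal signal. hsp-6 and hsp-110 stand on the right shoulder of the bulk, and dnj-19, hsp-60, hsp-1 and hsp-3 in the thin right tail.

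In the pooled list the genes fell into 3 levels. The first 4 ran from 270.25 to 174.06, hsp-110 and hsp-6 had 71.16 and 65.22, and hsp-4 had none. The step from dnj-19 to hsp-110 was 1.29 on the log2 scale, while no step within the first 4 exceeded 0.39. Across 634 optimal peaks with a region in both replicates, the SD of the log2 ratio of replicate 2 to replicate 1 was 0.491. The pooled steps within the upper 4, and the 0.13 between hsp-110 and hsp-6, were smaller than this SD. It describes replicate ratios at optimal peaks, not differences between genes, and hsp-110 and hsp-6 have no optimal peak. It therefore sets no error on these steps. In replicate 2 alone the upper 4 ran from 194.53 to 94.73, with a step of 0.51 from hsp-3 to hsp-60. The step from dnj-19 to hsp-110 was 0.88 in that list, and the one from hsp-60 to hsp-6 was 1.2 in replicate 1. These steps take the strongest region of each list, which was not always the one at the pooled summit. For hsp-110 in replicate 2 it lay 35 bp downstream of the start (51.44), while the region nearest to the pooled summit had 42.88. For hsp-6 in replicate 1 it lay 44 bp upstream (30.45), while the region nearest to the pooled summit had 17.8. The smaller step in replicate 2 is therefore not between the same regions as the pooled step. The order of the upper 4 was also not the same in both replicates: it ran hsp-1, dnj-19, hsp-3 and hsp-60 in replicate 1, and hsp-3, hsp-60, hsp-1 and dnj-19 in replicate 2.

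The BiP gene hsp-3, the endoplasmic reticulum HSP70, had the strongest region of the 7 in the pooled list. The gene lies at X 6089028 to 6092124 on the minus strand with 3 annotated starts. Its region, X 6091938 to 6092381, had a signal of 270.25 (rank 81) in the pooled list, 70.17 (rank 208) in replicate 1 and 194.53 (rank 67) in replicate 2. The summit was 36 bp upstream of the outermost start, and 2 bp upstream of it in replicate 1. Only 55 coding genes (0.28%) had a higher pooled signal. A weaker region followed 236 bp upstream of the outermost start (62.46, rank 5936). It ranked higher in replicate 2 (66.6, rank 954) and was not listed in replicate 1. Near an internal start, pooled regions lay 264 bp downstream (59.58, rank 7073) and 400 bp upstream (35.4, rank 29272).

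The other BiP gene, hsp-4, whose induction is the usual reporter of the unfolded protein response, was at the other end. It lies at II 7350112 to 7352645 on the minus strand, also with 3 starts. Neither the pooled list nor replicate 2 had a summit within 1000 bp of any of them. Replicate 1 had 1 region of 19.55 (rank 16912), below that list's median of 20.48, in a coding exon 444 bp upstream of an internal start. The nearest summits beyond 1000 bp were at 1064 bp in the pooled list (37.59, rank 25987) and 1045 bp in replicate 2 (29.29, rank 19106), both downstream of the innermost start. Of the 36-base words within 1000 bp of the outermost start, 97% occurred once in the genome, so most of the window is unique sequence at that length. A lack of a listed region says only that none entered these lists.

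In the mitochondrion the chaperonin gene hsp-60 and the HSP70 gene hsp-6 stood at different levels. hsp-60, at III 1619742 to 1625803 on the plus strand with 4 starts, had a region at III 1618868 to 1619311 of 201.86 (rank 165) in the pooled list, 69.92 (rank 209) in replicate 1 and 136.54 (rank 153) in replicate 2. Its summit lay 652 bp upstream, the farthest of the 4 optimal summits from the start of its gene. It was nearer, at 161 bp, to the start of Y22D7AL.10, annotated by RefSeq as a mitochondrial heat shock protein of the HSP10 type, the partner that closes the HSP60 chamber. The genes are divergent with starts 813 bp apart, so 1 peak served both under the 1000 bp rule and cannot be assigned to either.

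hsp-6 lies at V 4824124 to 4826760 on the minus strand. Its strongest pooled region, V 4826832 to 4827275, had a signal of 65.22 (rank 5051), 294 bp upstream, and a neighbouring one of 57.44 (rank 8019) lay 37 bp upstream. The replicates disagreed on which was higher. In replicate 1 the region by the start had 30.45 (rank 3736) and the other 17.8 (rank 21028), whereas in replicate 2 the region by the start had 28.04 (rank 21219) and the other 41.81 (rank 6309). The pooled summit 294 bp upstream was 24 bp from the ncRNA gene C37H5.15, 210 bp from the ncRNA gene C37H5.16 and 306 bp from C37H5.5. C37H5.5 is a divergent gene annotated as a nucleolar complex protein. A weaker pooled region of 38.7 (rank 24436) lay 539 bp upstream of hsp-6.

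Among the cytosolic genes, hsp-1, the HSC70 that worms make without stress, had a region at IV 17278397 to 17278840 of 206.75 (rank 157) in the pooled list, 73.99 (rank 177) in replicate 1 and 129.6 (rank 172) in replicate 2. The gene lies at IV 17278959 to 17281330 on the plus strand, and the summits were 340, 336 and 338 bp upstream. The nearest other start was that of the ncRNA gene F26D10.23, at 206 bp on the same strand. A weak pooled region of 37.1 (rank 26691) lay 141 bp upstream of hsp-1. Another 2 pooled regions lay in coding exons of hsp-1, at 685 bp (73.36, rank 3130) and 893 bp (47.41, rank 14752) downstream of the start. These were 402 and 194 bp from the snoRNA gene F26D10.24 (IV 17280046 to 17280169), which sits within hsp-1.

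The J-domain gene dnj-19, at V 5503033 to 5504857 on the minus strand, had a region at V 5504977 to 5505420 of 174.06 (rank 232) in the pooled list, 73.53 (rank 181) in replicate 1 and 94.73 (rank 342) in replicate 2. The summit was 342 bp upstream of dnj-19 but only 54 bp from the start of nhr-47, a divergent nuclear hormone receptor gene. The ncRNA genes C24G6.10 and C24G6.12 started 62 and 152 bp away. The peak is thus shared by 4 annotated starts, of which that of dnj-19 was the farthest.

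hsp-110, the nucleotide exchange partner of HSP70, lies at III 8443910 to 8446909 on the minus strand. Its region at III 8446904 to 8447347 had a signal of 71.16 (rank 3528) in the pooled list, 217 bp upstream. Replicate 1 gave 28.96 (rank 4624), 246 bp upstream. In replicate 2 the strongest summit was 35 bp downstream of the start (51.44, rank 2663), with another 187 bp upstream (42.88, rank 5688). The upstream summit lay 31 bp from the ncRNA gene C30C11.14 and 227 bp from rpn-3, a divergent gene for a proteasome subunit. A region inside the gene, 1186 bp from the start, was stronger than the one at the promoter in the pooled list (80.61, rank 2190) and in replicate 1 (45.88, rank 659, at 1064 bp), but not in replicate 2 (31.81, rank 15366, at 1187 bp).

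**Figure D3:**
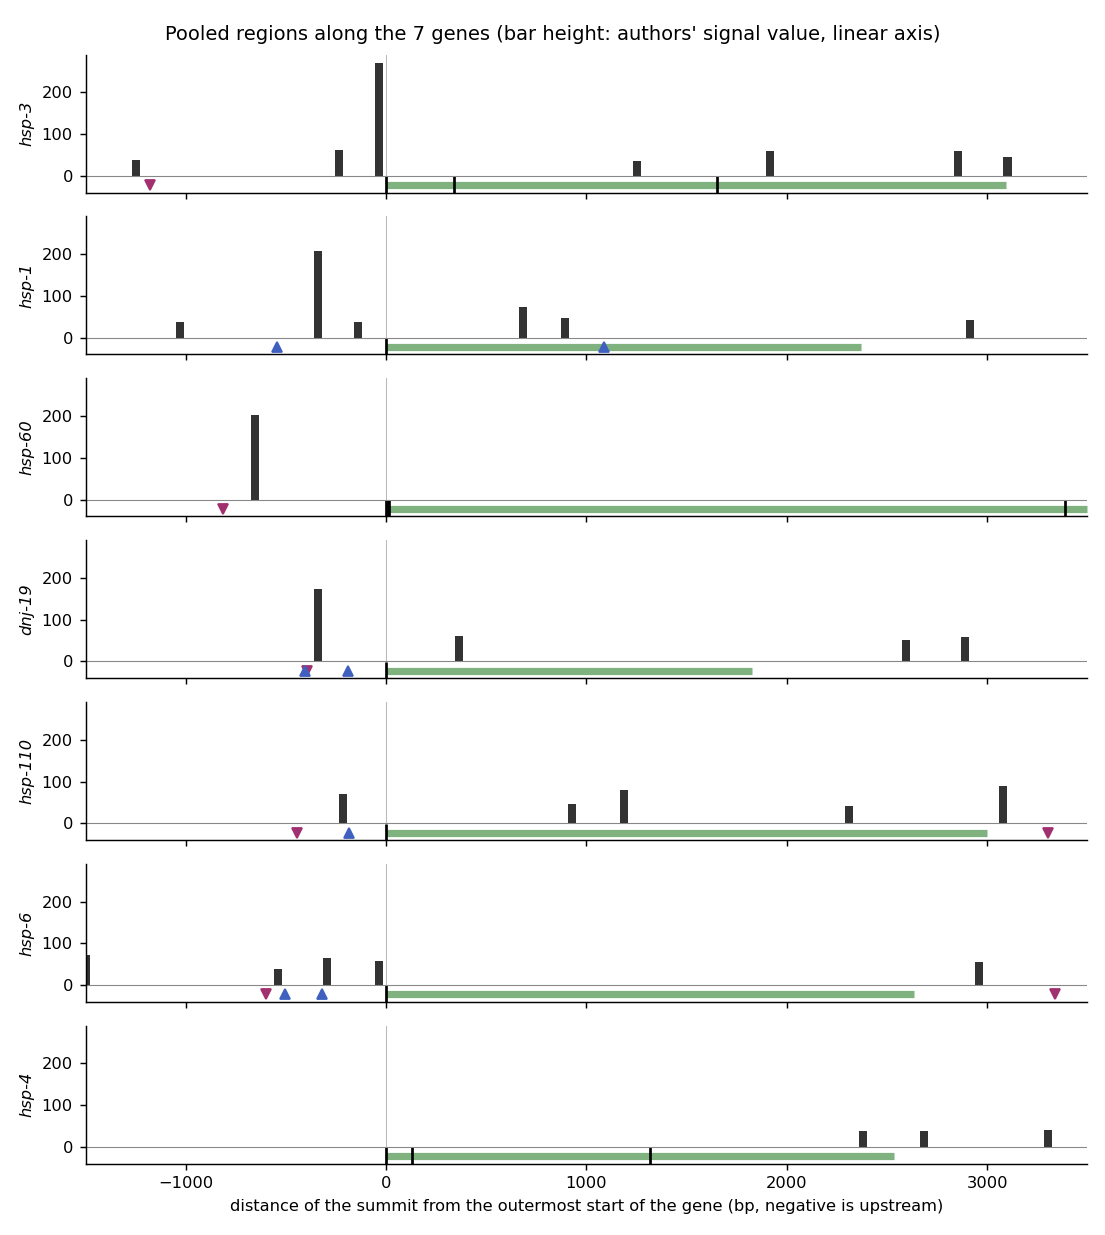
Regions of the pooled list along each gene, placed by the distance of the summit from the outermost start (x axis, bp, negative upstream) with bar height giving the authors' signal value on a linear axis. Green bars are the genes, black ticks their annotated starts, purple triangles starts of other protein-coding genes and blue triangles starts of non-coding RNA genes; the tall bars lie upstream of dnj-19, hsp-60, hsp-1 and hsp-3, and hsp-4 has low bars near its far end alone.

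Most of the strongest regions lay between neighbouring starts. Of the 6 with a pooled region, 5 had another gene's start at least as near to the summit, and 23.7% of coding genes with a region had such a start or a small RNA gene near. No tRNA, snoRNA, snRNA, rRNA or miRNA gene lay within 500 bp of the strongest summit of any of the 6. hsp-3 was the exception with no other start as near. Its divergent neighbour C15H9.5 starts 1176 bp away, and the strongest pooled region within 1000 bp of that start was the weaker one of 62.46. When each region was given to the coding gene with the nearest start alone, hsp-60 lost its peak to Y22D7AL.10 and dnj-19 lost its peak to nhr-47, which left 2 of the 7 genes (hsp-3 and hsp-1) with an optimal summit.

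The 1000 bp limit bears on the counts and on the value of hsp-110. At 500 bp hsp-60 dropped out and 3 of the 7 genes had an optimal summit, and at 200 bp hsp-3 alone had one. The regions just inside 1000 bp were those of hsp-110 at 926 bp (47.42) and hsp-1 at 893 bp (47.41), and just outside lay regions of hsp-1 at 1028 bp (37.83), hsp-4 at 1064 bp (37.59) and hsp-110 at 1186 bp (80.61). Within the gene spans, the pooled list had 3 summits each in hsp-3 and hsp-110, 2 each in hsp-1 and hsp-60, 1 each in dnj-19 and hsp-4, and 0 in hsp-6. The strongest of these was the 80.61 of hsp-110, and that of dnj-19 was 60.93 (rank 6549), 364 bp downstream of the start. An internal start of hsp-60 had a region of 56.0 (rank 8765) 279 bp downstream, which was at rank 1789 in replicate 1 (36.1, 330 bp downstream). Over all lists the 7 genes had 4 optimal, 17 pooled, 16 replicate 1 and 14 replicate 2 regions within range. Annotated starts carry a limit of their own, since many C. elegans transcripts are trans-spliced and their annotated ends can lie downstream of where transcription begins.

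The replicates placed the strong summits closely. Around the pooled summit, the nearest summits of replicates 1 and 2 were 2 bp apart at hsp-1, 3 bp at dnj-19, 22 bp at hsp-60 and 34 bp at hsp-3. They were 1 bp apart at hsp-6 and 59 bp at hsp-110. At hsp-6 the replicate 1 region, and at hsp-110 the replicate 2 region, was not the gene's strongest in that list. The ratio of replicate 2 to replicate 1 signal at these regions had a median of 1.769 over 634 optimal peaks (quartiles 1.463 and 2.208). hsp-1 (1.751) and hsp-60 (1.953) fell inside those quartiles. The ratio was 2.772 at hsp-3, higher than at 91% of optimal peaks and 1.288 at dnj-19, under the lower quartile. hsp-3 was the highest of the 7 in replicate 2 (194.53) but stood below hsp-1 and dnj-19 in replicate 1 (70.17). In replicate 1 no step between neighbours among the upper 4 exceeded 0.07 on the log2 scale. What set the place of hsp-3 in the pooled list was not tested.

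**Figure D4:**
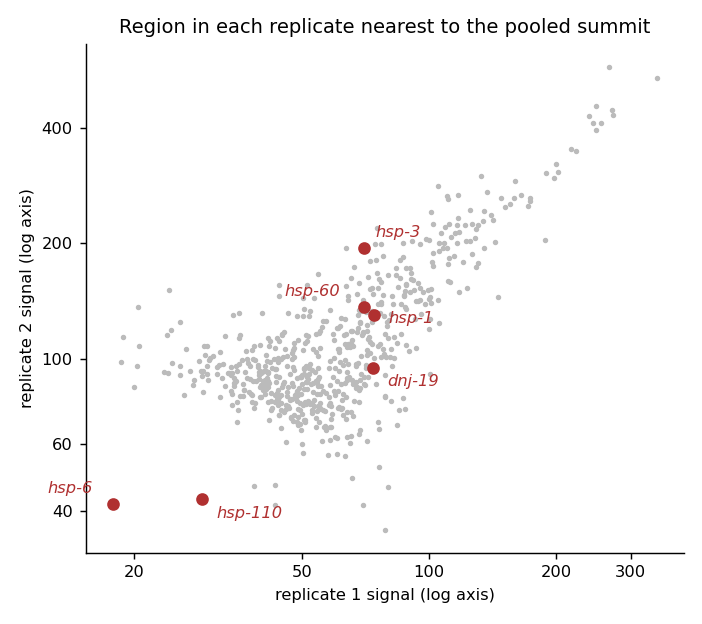
Signal of the replicate 1 region (x axis) against the replicate 2 region (y axis) nearest to each pooled summit, both axes logarithmic, for 634 optimal peaks (grey) and 6 chaperone genes (red). hsp-1 and hsp-60 sit within the grey cloud, hsp-3 in its upper part, dnj-19 in its lower part, and hsp-6 and hsp-110 below and left of nearly all grey points.

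Heat shock type matches were seen in all 3 compartments. A TTCNNGAA or GAANNTTC match lay within 150 bp of the summit (for hsp-4, in the 300 bp around its start) for 6 of the 7 genes, the exception being hsp-3. Such a match was found in 32.5% of all coding promoters of 300 bp, in 31.3% of pooled regions and in 20.8% of optimal regions. With the 300 bp around the outermost start used for every gene, 3 of the 7 had a match (hsp-1, hsp-110 and hsp-4). At hsp-1 it began 14 bp before the summit and at dnj-19 it began 4 bp after. At hsp-60, hsp-110 and hsp-6 both forms overlapped, so that 3 alternating units ran without a break over 13 bases, which can be seen as the long capital runs above.

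These runs began 45, 20 and 13 bp before the summits of hsp-60, hsp-110 and hsp-6. hsp-110 had another run after its summit, 102 bp away. A run of that kind was present in 1.97% of coding promoters, 1.84% of pooled regions and 0.945% of optimal regions. It was looked for after the sequences had been seen, and a match in letters shows neither a bound site nor which protein is there. hsp-1 had no run near its summit but had 1 in the 300 bp around its annotated start, 144 bp upstream.

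Both endoplasmic reticulum genes had matches to the other kind of element. hsp-3 had TGACGTG 96 bp and CCACG 87 bp before the summit, with another CCACG 68 bp after it, and hsp-4 had TGACGTG 83 bp and CCACG 133 bp upstream of its start. CCACG or TGACGTG was found within 150 bp of the summit in none of the 5 cytosolic and mitochondrial genes. In the 300 bp around the outermost start, the window used for hsp-4, it was found in 4 of the 7 genes, since hsp-1 had CCACG 126 bp upstream of its start and dnj-19 had CCACG 38 bp downstream of its own. The element was thus not particular to the endoplasmic reticulum pair. It was present in 23.3% of coding promoters, 29.1% of pooled regions and 35.6% of optimal regions, and TGACGTG alone in 2.93% of promoters. hsp-3 and hsp-4 both had TGACGTG upstream, and in the pooled list hsp-3 had the strongest region of the 7 and hsp-4 none in range. Any link of the element to signal was not tested.

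The CCAAT box, a common promoter element, was found within 150 bp of the summit at hsp-3, hsp-6, hsp-60 and dnj-19. It was present in 40.6% of optimal and 49.9% of pooled regions. In the 300 bp around the outermost start, 2 of the 7 genes had it (hsp-3 and hsp-6), against 45.5% of promoters. A GTTCGANNC match, the B box by which transfer RNA genes are recognised, was found at dnj-19 116 bp after the summit and at none of the other 6. It was present in 22.2% of optimal regions and 3.33% of pooled regions. Base composition varied widely. The window of 150 bp either side of the hsp-3 summit was 59.1% GC, above 97% of optimal windows, while hsp-1 had 35.5% and hsp-110 33.2%, against medians of 45.5% for optimal and 40.2% for pooled windows. No 6-base word was shared by all 4 optimal summits within 75 bp, counting both strands, and 2 were within 150 bp. The part of base composition in the motif counts was not tested.

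A wider list of 114 folding genes places the 7 among their relatives. It was drawn up with earlier results of these data known. Of the 114 genes, 13 had an optimal summit, in 10 distinct peaks. Leaving out the 7 genes, 9 of 107 did (8.41%, 7 distinct peaks), against the 2.34% of all coding genes. One of these 9, Y22D7AL.10, was counted through the hsp-60 peak. With each region given to the nearest coding gene only, the 13 became 7, and the share of all coding genes became 1.72%. A pooled region was present for 85 of the 114 (74.6%), against 51.7% of all coding genes.

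Among 29 J-domain genes, 4 had an optimal summit: dnj-29 (312.62, rank 60, 167 bp upstream), the strongest of the list, then dnj-19, dnj-14 (163.65) and dnj-9 (139.41). Among 7 cytosolic HSP70 and HSP90 genes, 3 had one. Besides hsp-1 these were F44E5.4 and F44E5.5, a divergent pair of near-identical HSP70 genes with 1 peak between them (184.07). Only 66.7% of the 36-base words in that peak, and 1.84% and 2.08% of those in the genes, were unique in the genome, so its signal is uncertain. The other genes with an optimal summit were cct-8 of the cytosolic chaperonin (141.4), Y22D7AL.10 with hsp-60, and 2 small heat shock gene models, both named hsp-16.48, that share 1 peak (165.49) 785 and 850 bp downstream of their starts. Word uniqueness was not counted for the hsp-16.48 peak.

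In the endoplasmic reticulum group hsp-3 was the 1 gene of 18 with an optimal summit. The next was enpl-1, the HSP90 of that compartment, at 114.68 (rank 657, 1 bp upstream), just under the lowest optimal signal of 115.72. None of 12 cytosolic co-chaperone genes and none of 4 heat shock regulators had an optimal summit, which at 2.34% of all coding genes says nothing about groups of that size. Among the regulators, hsf-1, the heat shock factor gene, had no pooled region in range. Below the optimal set the strongest others were hsp-12.3 (114.37), cct-7 (107.63), hsp-16.2 and hsp-16.41 with 1 region (107.0), dnj-5 (105.56), sgt-1 (100.86) and C34C12.8 (99.23). The hsp-12.3 region lay 70 bp from the snRNA gene F38E11.11. Starts of ncRNA genes lay 29 bp from the cct-7 summit and 9 bp from the sgt-1 summit.

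**Figure D5:**
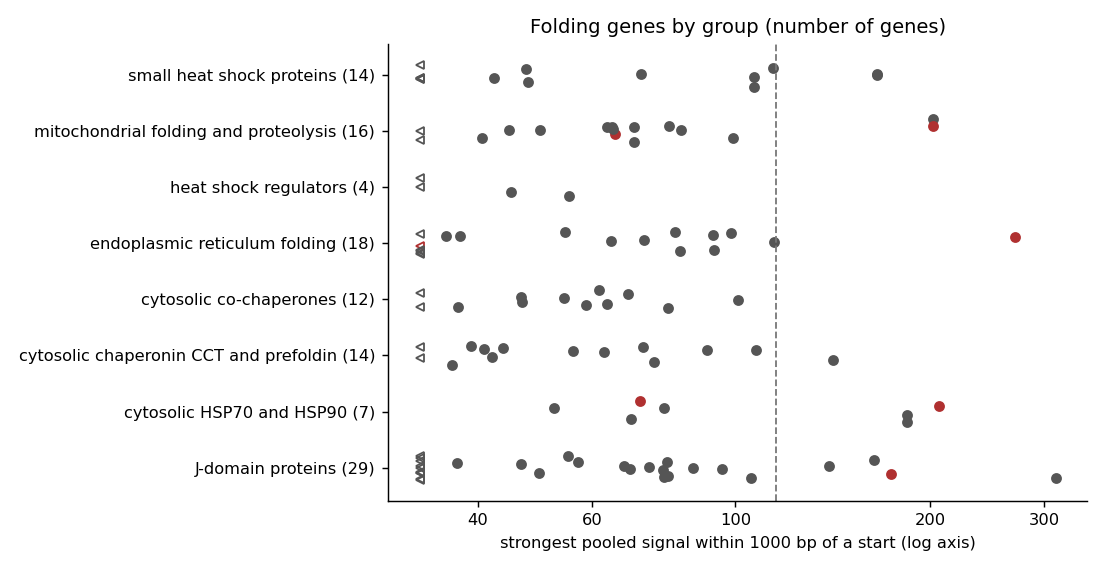
Strongest pooled signal within 1000 bp of a start (log x axis) for each gene of the list of 114 folding genes, by group, with the 7 chaperone genes in red and vertical scatter for legibility only. Open triangles at the left mark genes with no pooled region in range and the dashed line is the lowest optimal signal (115.72); 13 genes lie to its right.

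For each gene, the coding gene most like it in log2 signal over the pooled and both replicate lists was looked up among about 6440 genes with a region in all 3. For hsp-1 this was jmjd-1.2 (206.46, 73.57 and 128.91 in pooled, replicate 1 and replicate 2), at a Euclidean distance of 0.011. For hsp-60 it was mig-22 (0.046), for hsp-3 mdl-1 (0.102) and for dnj-19 piit-1 (0.072). For hsp-110 it was Y56A3A.33 (0.036) and for hsp-6 tag-10 (0.05). The look-up took the strongest region of each list, which for hsp-110 and hsp-6 was not the same region in all 3. None of these nearest genes is in the folding list. That list holds 114 of 19973 coding genes, so their absence from it says little.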

How the data were processed

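ChIP-seq regions of 2 biological replicates of 1 group were used. Per the deposited notes, coordinates are in ce11, each replicate list and the pooled list were made from alignments with a control and hold peaks and background without a threshold, and the optimal set passed an irreproducible discovery rate threshold. The signal value and the −log10 q-value per region were deposited by the authors. For aligner, caller, threshold and depth, these sources give nothing. The control experiment was not analysed here. The −log10 q-value was at its ceiling of 2.29 for the 4 optimal regions and was not used to rank.

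Summits (interval start plus the deposited offset) were joined to Ensembl release 115 gene models on WBcel235, the same assembly as ce11, counting from 1. Mitochondrial regions were left out. A gene took its strongest region within 1000 bp of any start. Another start at most as far from the summit, or a tRNA, snoRNA, snRNA, rRNA or miRNA gene within 500 bp, was counted as near. Replicate regions were matched to a pooled summit within 222 bp. Motifs were searched on both strands, within 150 bp of the summit or from 250 bp before to 50 bp after the outermost start. This promoter window was cut from the RefSeq WBcel235 genome at Ensembl starts. Printed sequences stop at annotated untranslated regions. Product names come from RefSeq.

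No test was made, since the genes, lists and naming rule were chosen with earlier results of these data known. Named genes are the 7, genes with a start within 1000 bp of their strongest summits, list genes with an optimal summit and the 8 strongest others, and the closest gene in signal. Some genes nearer to the summits of list genes are named as well. Gene-body regions, base composition, word uniqueness, shared words and the runs of 3 units were added after the values had been seen. Of the list's names or patterns, 4 matched no gene model. Python 3.11.15, numpy 2.4.6 and pandas 2.3.3 were used, and assignment was tested on simulated data. Alternatives were other distances (200, 500 and 2000 bp), the midpoint or any overlap, the nearest gene or outermost start alone, stronger peaks, each replicate alone and other motif windows.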

Additional observations from a re-analysis of the deposited data

How the results depend on the processing

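The count of 4 genes with an optimal summit, the count of 4 among the strongest regions of both replicates and the 13 list genes stayed within 1.5 times under most alternatives. The exceptions were a limit of 200 bp (1, 1 and 4 genes; 0.701% of coding genes have an optimal summit) and giving each region to the nearest coding gene only (2, 2 and 7 genes; 1.72% of coding genes). The median signal of 174.06 became 71.16 at 500 bp, 0 at 200 bp (the median gene had no region) and 65.22 with the nearest gene only. With 1 replicate at a time it was 69.92 to 94.73, on those lists' own scales. The 5 genes with another start as near became 0 at 200 bp, 3 with the nearest gene only and 3 with the stronger optimal peaks. Around annotated starts in place of summits, heat shock type matches fell from 6 to 3 genes and endoplasmic reticulum type matches rose from 2 to 4. Apart from the narrower limits themselves, the cause was not tested. No paired analysis was possible because there is 1 group and no test. Depth is unknown, so a gene without a listed region may hold signal below the lists' lowest values.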
